A study of Mus musculus with 17 samples.

Results

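Cytosolic ribosomal protein genes encode the protein part of the ribosome that translates nuclear mRNAs. Members were the probe sets paired with 1 gene symbol beginning with Rpl or Rps and a digit, or with the symbols Rplp0, Rplp1, Rplp2 or Rpsa, without symbols beginning with Rps6k or containing -ps, and with 1 probe set kept per gene, the one with the highest mean over the 17 arrays. The rule found 50 genes of the 18193 genes measured. They comprise 21 small subunit genes, 20 large subunit genes, the stalk genes Rplp0 and Rplp2, 6 paralogues (Rpl22l1, Rpl39l, Rpl3l, Rpl7l1, Rps27l and Rps4l) and Rps19bp1, whose product binds Rps19 and is not itself a ribosomal protein. The members cover 43 of 79 genes of the textbook ribosome. A further 110 probe sets carry several symbols of which 1 is a ribosomal protein gene, so that Rpl5, Rpl32 and Rplp1 among others were not analysed here.

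RNA came from pancreatic islets of the C57BL/6 strain, which received no treatment other than culture (F12K, 10% fetal bovine serum). A batch was a pool of islets from 4 mice, divided over the culture times of 0, 24 and 48 h, and 6 such batches were made. The 0 h group has 5 arrays (batches 1, 2, 3, 4 and 6), and the 24 h and 48 h groups have 6 each. Batch 5 at 0 h was not analysed here. Levels are the authors' log2 values from whole-genome Affymetrix arrays, hybridised after the RNA had been amplified. All values below are on that log2 scale unless given as a fold or a share.

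Ribosomal protein genes are among the most abundantly transcribed genes of most cells, and their products are made in matched amounts, since a protein not built into a subunit is usually degraded. Most of their mRNAs begin with a run of pyrimidines, the 5′ terminal oligopyrimidine (TOP) tract. Through it the kinase mTOR, its target 4E-BP1 and the protein LARP1 hold back or release translation, largely without a change in mRNA level. Beta cells translate large amounts of insulin mRNA and depend on this machinery.

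The promoters of 44 members were found in the RefSeq table of the GRCm38.p6 build. The letters at their annotated starts are shown for the genes that the results turn on and for members often used as controls. Each line runs from 50 bases before the start to 30 bases after it, with the longest run of C and T in capitals. Rpl22 lies at chr4:152325676-152325755 (+ strand), Rps19 at chr7:24884626-24884705 (+), Rps3 at chr7:99483680-99483759 (-) and Rpl22l1 at chr3:28805458-28805537 (+). Rps6 lies at chr4:86857338-86857417 (-), Rps18 at chr17:33955636-33955715 (-), Rpl13a at chr7:45128716-45128795 (-) and Rps10 at chr17:27635215-27635294 (-).
Rpl22: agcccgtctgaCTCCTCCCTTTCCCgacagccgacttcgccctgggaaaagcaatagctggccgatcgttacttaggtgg
Rps19: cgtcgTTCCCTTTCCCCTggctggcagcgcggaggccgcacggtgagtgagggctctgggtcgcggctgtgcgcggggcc
Rps3: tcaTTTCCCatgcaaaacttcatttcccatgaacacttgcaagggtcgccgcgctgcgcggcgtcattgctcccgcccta
Rpl22l1: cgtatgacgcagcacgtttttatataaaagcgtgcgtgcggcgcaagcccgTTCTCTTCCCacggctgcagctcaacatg
Rps6: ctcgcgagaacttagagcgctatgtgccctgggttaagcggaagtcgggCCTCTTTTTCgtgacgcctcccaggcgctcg
Rps18: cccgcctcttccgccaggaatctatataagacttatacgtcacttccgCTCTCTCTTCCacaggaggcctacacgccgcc
Rpl13a: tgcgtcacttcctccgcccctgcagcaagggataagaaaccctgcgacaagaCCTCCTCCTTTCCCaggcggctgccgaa
Rps10: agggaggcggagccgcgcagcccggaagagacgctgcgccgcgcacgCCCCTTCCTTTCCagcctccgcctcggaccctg

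In 5 of these windows (Rpl22l1, Rps6, Rps18, Rpl13a and Rps10) the run starts within 3 bases of the annotated start, which is where a TOP tract would lie. In Rpl22 and Rps19, for which the table holds 2 and 3 starts, the run begins at positions -39 and -45 from the start shown. That start is the one whose window holds the longest run. Runs at their other starts are not given here, so the windows do not show whether these genes lack a TOP tract. The window of Rps3 holds no run longer than 6. For the counts below, a gene with several starts took its longest run and any motif match over all of them. Over the 100 bases centred on the start, the longest run had a median of 10 bases in the 44 members and of 7 bases in all 27025 genes of the table. A run of 8 bases or more was present in 36 members (81.8%) and in 39.3% of all genes. Of 3 motifs searched on both strands of the 300 bases from 250 before to 50 after the start, CCGGAAG, the core of an ETS-type site, was in 21 members (47.7%) against 9.93% of all genes. AAGATGG, the core of a YY1-type site, was in 8 members (18.2%) against 7.28%, and TATAAA was in 6 members (13.6%) against 15.7%. These are matches of letters in a window and not measured sites. The other 6 members are Rpl7, Rpl8, Rps14, Rps20, Rps29 and Rps4l.

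**Figure D1:**
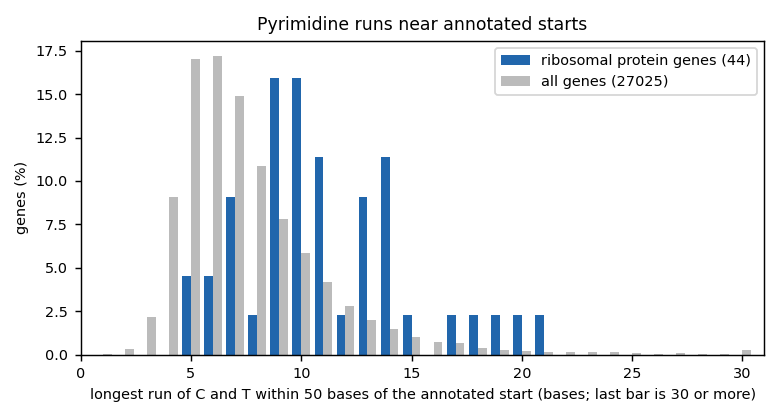
Longest run of C and T within 50 bases either side of the annotated start (x axis, bases) against the share of genes (y axis, percent), for 44 ribosomal protein genes (blue) and all 27025 genes of the promoter table (grey). A gene with several starts is placed by the longest run over all of them. Ribosomal protein genes centre on a median of 10 bases, against 7 for all genes.

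Few ribosomal protein mRNAs passed the test between culture times. At 24 h against 0 h, 1 of the 50 members rose (Rps19) and 0 fell by limma at a Benjamini-Hochberg adjusted p under 0.05, which is 2% of members, where 8.58% of all 45037 probe sets passed (3.86% higher and 4.72% lower). At 48 h against 0 h, 4 rose (Rpl22, Rps19, Rps3 and Rpl8) and 0 fell, or 8% of members, where 8.47% of all probe sets passed (4.67% higher and 3.80% lower). At 48 h against 24 h no member passed, where 0.444% of all probe sets did. At an unadjusted p under 0.05, the counts were 8, 10 and 4 members. With 1 probe set per gene, as for the members, 12.1% of all 18193 genes passed at 24 h against 0 h (5.44% higher and 6.66% lower) and 11.7% at 48 h against 0 h (6.45% higher and 5.27% lower). At 48 h against 24 h it was 0.759%. Counted in either direction, the share of members that passed was lower than that of all genes at both times against 0 h, while the 8% that rose at 48 h was close to the 6.45% of all genes. No test of these differences was made.

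The size of the log2 difference, whatever its sign, had a median over the members of 0.11 at 24 h against 0 h, 0.09 at 48 h against 0 h and 0.07 at 48 h against 24 h. Over all genes it was 0.12, 0.12 and 0.09, and over all probe sets 0.10, 0.10 and 0.08. The signed median of the 50 members was 0.01 at 24 h against 0 h, -0.02 at 48 h against 0 h and -0.02 at 48 h against 24 h. The medians over all probe sets were -0.01, -0.01 and -0.003. The 95% interval of the difference lay wholly within 0.5 of 0, a 1.41-fold change either way, for 43 members at 24 h against 0 h (86%, against 76.2% of all genes and 79.6% of all probe sets). It did so for 41 members at 48 h against 0 h (82%, against 76.1% and 79.2%) and for 46 at 48 h against 24 h (92%, against 86.9% and 87.6%). Neither these shares nor the shares that passed were matched for level. The 46 members at or above the table's median of 3.52 averaged 10.06 at 0 h. The deposited values are normalised across arrays, so that they give each gene's level relative to the other transcripts of the array. In a whole islet, fewer cells of a type and less RNA per cell cannot be told apart.

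**Figure D2:**
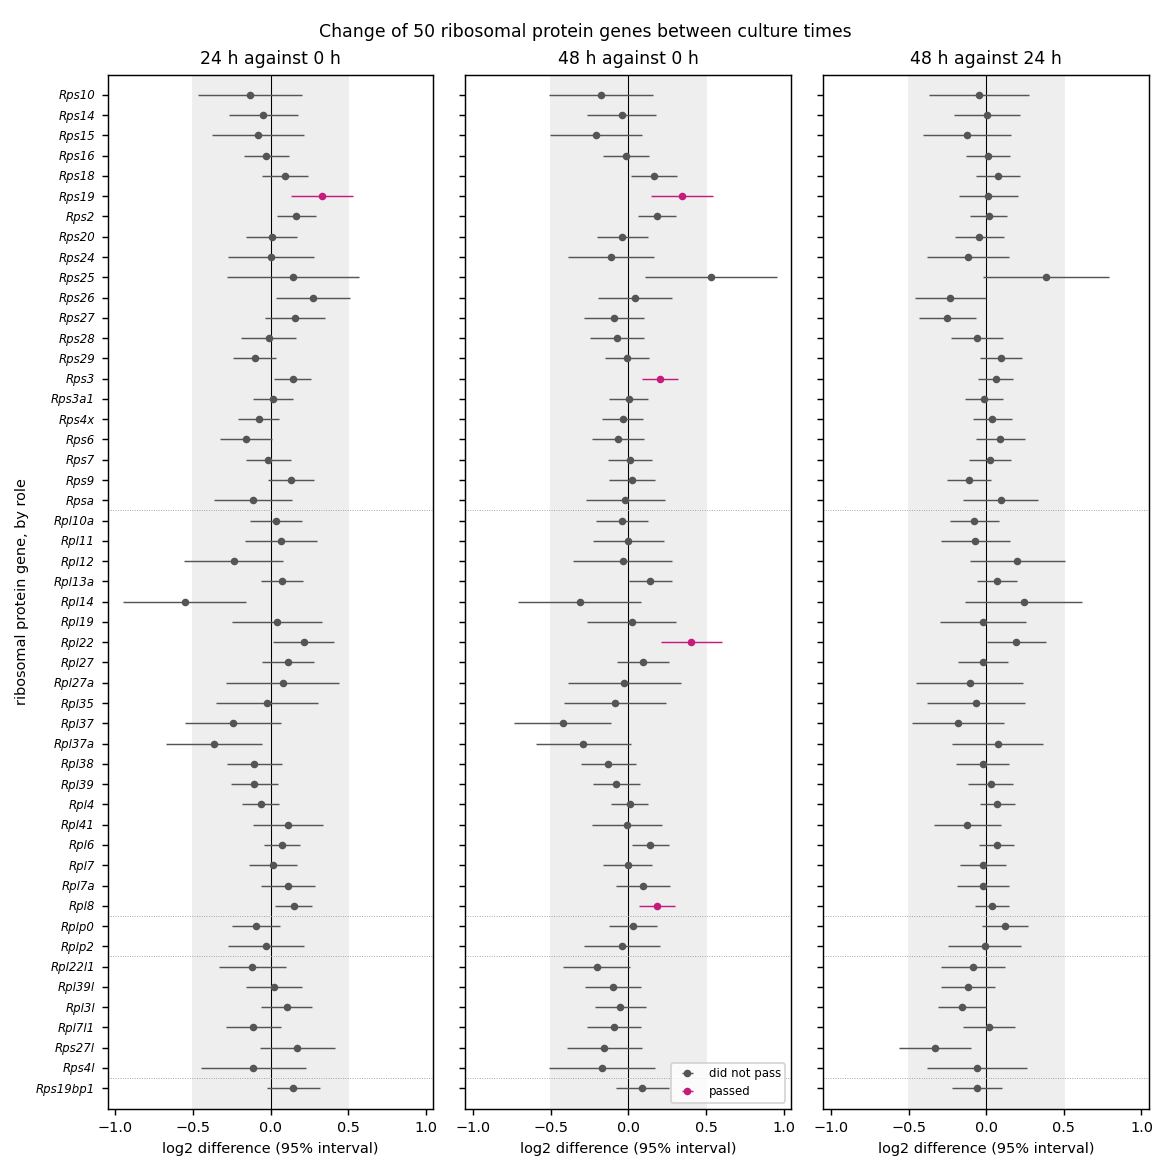
Log2 difference (x axis) of each of the 50 genes (y axis, grouped by small subunit, large subunit, stalk, paralogues and Rps19bp1 from top to bottom) in the 3 comparisons. Points are limma estimates from 17 arrays, lines are 95% intervals, pink marks an adjusted p under 0.05 and the grey band spans 0.5 either side of 0. The pink points are Rps19 at 24 h, and Rps19, Rps3, Rpl22 and Rpl8 at 48 h.

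Rpl22, an RNA-binding protein of the large subunit that T cell development in mice depends on, showed the largest rise among the members that passed. At 48 h its level ran from 12.04 through a median of 12.07 to 12.20 over 6 arrays, against 11.77, 11.75, 11.40, 11.73 and 11.78 at 0 h in batches 1, 2, 3, 4 and 6. All 48 h arrays lay above all 0 h arrays, and the 0 h array of batch 3 was the low one. The difference was 0.41 (SE 0.09, 1.33-fold, adjusted p = 0.00986 by limma), higher in 5 of 5 batches, and with the batch as a block the adjusted p was 0.0337. At 24 h the level ran from 11.48 through 11.98 to 12.02, with batch 6 alone below all but 1 of the 0 h arrays. The 24 h difference of 0.21 (SE 0.09, adjusted p = 0.21) did not pass on all arrays, and was 0.30 (adjusted p = 0.0147) without the 24 h array of batch 6. All 3 probe sets of Rpl22 rose at 48 h, by 0.41, 0.42 and 0.56.

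Rps19, a small subunit protein needed for 40S maturation and the gene most often mutated in Diamond-Blackfan anaemia, was the member that rose at both times. At 24 h its level ran from 9.91 through a median of 10.03 to 10.41, and at 0 h it was 9.62, 9.68, 9.87, 9.62 and 9.90. At 48 h it ran from 9.93 through 10.07 to 10.35. Neither later time overlapped 0 h, but the gap above the highest 0 h arrays, those of batches 3 and 6, was small. The differences were 0.33 at 24 h (SE 0.09, 1.26-fold, adjusted p = 0.0335 by limma) and 0.34 at 48 h (SE 0.09, 1.27-fold, adjusted p = 0.0276), each higher in 5 of 5 batches. With the batch as a block the adjusted p was 0.00586 and 0.00528. The call at 24 h was lost on leaving out any 1 of the 0 h arrays of batches 1, 2 and 4 or the 24 h arrays of batches 1, 2 and 6, with adjusted p up to 0.0927. The call at 48 h was lost without the 0 h array of batch 1, 2 or 4 or the 48 h array of batch 6, with adjusted p up to 0.0792.

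Rps3 lines the mRNA entry channel of the small subunit and also has roles in DNA repair. At 48 h its level ran from 11.94 through a median of 11.97 to 12.17, against 11.83, 11.84, 11.77, 11.71 and 11.80 at 0 h, with no overlap and with batch 5 alone at the top at 48 h. The difference was 0.20 (SE 0.06, 1.15-fold, adjusted p = 0.0306 by limma), and 0.19 with an adjusted p of 0.0945 with the batch as a block. The second of the 3 probe sets of Rps3 also rose at 48 h, by 0.68 (adjusted p = 0.0379). The third was 0.16 higher (adjusted p = 0.262).

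Rpl8 sits near the peptidyl transferase centre of the large subunit. At 48 h it ran from 11.64 through 11.71 to 11.80, against 11.64, 11.54, 11.49, 11.50 and 11.49 at 0 h, where the high 0 h array of batch 1 met the lowest 48 h array. The difference was 0.19 (SE 0.06, 1.14-fold, adjusted p = 0.046 by limma). It was 0.19 with an adjusted p of 0.067 with the batch as a block. Of the 17 fits that each left out 1 array, 4 kept the call for Rpl8, 13 for Rps3, 13 for Rps19 at 48 h and 17 for Rpl22. In the 6 of these fits without a 24 h array, the 48 h difference against 0 h stayed the same. Only its error and adjusted p could change there.

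**Figure D3:**
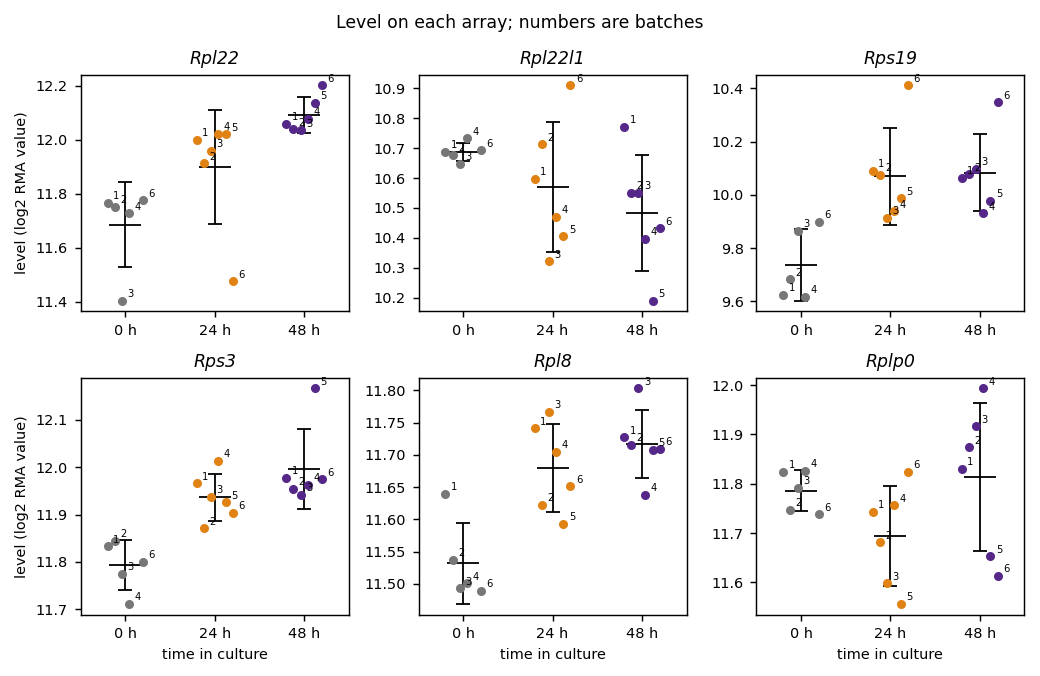
Level (y axis, log2 value, with its own range in each panel) at 0, 24 and 48 h (x axis) for Rpl22, its paralogue Rpl22l1, Rps19, Rps3, Rpl8 and Rplp0. Points are arrays with their batch number, bars are means ± SD of 5, 6 and 6 arrays. Rpl22 lies between 12.04 and 12.20 at 48 h and between 11.40 and 11.78 at 0 h, while Rplp0 overlaps at all times.

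Among the other small subunit genes, Rps6, the substrate of the S6 kinases downstream of mTOR, averaged 8.86 ± 0.13 at 0 h, 8.70 ± 0.11 at 24 h and 8.79 ± 0.13 at 48 h (SD, n = 5, 6 and 6). Rps18, often used as a reference gene, averaged 12.34 ± 0.12, 12.44 ± 0.13 and 12.51 ± 0.05. Rpsa, which also serves as the laminin receptor, averaged 11.51 ± 0.10, 11.40 ± 0.26 and 11.49 ± 0.22. For all 3 genes the times overlapped, and the lowest adjusted p was 0.174, of Rps18 at 48 h against 0 h. Rps2, near the mRNA entry site of the subunit, was 0.17 higher at 24 h and 0.18 higher at 48 h against 0 h (adjusted p = 0.094 and 0.0638), higher in 5 of 5 batches each time. At 48 h it passed with the arrays centred on their medians (0.22, adjusted p = 0.0174 by limma), with another variance prior (adjusted p = 0.0431) and with the mean over probe sets (adjusted p = 0.0451). Rps2 has 1 probe set, so that the mean over probe sets left its difference at 0.18. Rps2 and the genes named in the next sentences on large differences were chosen after their values were seen.

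Of the large subunit, Rpl11, which with Rpl5 and 5S rRNA restrains the p53 inhibitor Mdm2, averaged 9.81 ± 0.06 at 0 h, 9.88 ± 0.26 at 24 h and 9.81 ± 0.17 at 48 h. Rpl13a, another common reference gene, averaged 12.38 ± 0.09, 12.45 ± 0.08 and 12.52 ± 0.09. Its 4 probe sets disagreed at 24 h against 0 h, since the one with the lowest mean fell by 0.32 (adjusted p = 0.0453 by limma) and the one with the highest mean was 0.07 higher (adjusted p = 0.626). Of all 106 probe sets of the members, 1 rose and 1 fell at 24 h, and 8 rose and 0 fell at 48 h against 0 h. Besides those of the 4 genes above, the 48 h count holds the dimmest of 4 probe sets of Rpl41, which was 0.60 higher while the brightest was -0.01 (adjusted p = 0.0291 and 0.971).

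The stalk genes encode the arm that recruits elongation factors to the ribosome. Rplp0, the base of the stalk, averaged 11.79 ± 0.04 at 0 h, 11.69 ± 0.10 at 24 h and 11.81 ± 0.15 at 48 h. Rplp2 averaged 11.42 ± 0.04, 11.39 ± 0.29 and 11.38 ± 0.18. Neither passed in any comparison, and the arrays of the 3 times overlapped. At 24 h Rplp2 was lowest on batch 5, at 10.94, and highest on batch 6, at 11.74.

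The largest differences that did not pass came from members with a wide spread. Rpl14 was -0.55 at 24 h against 0 h (95% interval -0.95 to -0.16, adjusted p = 0.0822 by limma). Rps25 was 0.53 at 48 h against 0 h (0.11 to 0.96, adjusted p = 0.121), and Rpl37 was -0.42 (-0.74 to -0.11, adjusted p = 0.0897). Each of the 3 genes has 1 probe set, with mean levels of 5.09, 6.76 and 4.82. The 46 members at or above the table's median averaged 10.06 at 0 h. Whether such dim probe sets follow their genes well was not tested. Leaving out 1 array brought each of the 3 past the threshold: Rpl14 without the 0 h array of batch 1 or the 24 h array of batch 2, Rps25 without the 0 h array of batch 6, and Rpl37 without the 48 h array of batch 1. Rpl12, Rps16 and the paralogues Rpl39l and Rpl3l had mean levels under the median of the whole table, 3.52. With no detection call to go by, those levels were not separated from background.

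Some paralogues replace a standard protein in certain ribosomes or tissues. Rpl22l1 takes the place of Rpl22, and in mice Rpl22 protein is known to repress Rpl22l1 mRNA. The level of Rpl22l1 at 48 h ran from 10.19 through a median of 10.49 to 10.77, against 10.69, 10.68, 10.65, 10.73 and 10.69 at 0 h. Only the 48 h array of batch 1 was above the 0 h arrays, and the difference of -0.21 (SE 0.10, adjusted p = 0.265 by limma) did not pass.

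The log2 ratio of Rpl22l1 to Rpl22 was -1.29, -1.49, -1.48, -1.68, -1.95 and -1.77 at 48 h in batches 1 to 6, against -1.08, -1.07, -0.76, -0.996 and -1.08 at 0 h in batches 1, 2, 3, 4 and 6. The 2 times did not overlap, and the ratio was lower at 48 h in 5 of 5 batches. The mean difference was -0.61 (SE 0.11, two-sided exact permutation p = 0.00433, adjusted p = 0.0649 over 15 tests). This test does not use the pairing by batch. Within batches the mean difference was -0.54 (exact sign-flip p = 0.0625, the smallest that 5 batches allow). At 24 h the ratio was -1.40, -1.20, -1.64, -1.55, -1.61 and -0.57. All but batch 6 lay below every 0 h array, and the mean difference from 0 h was -0.33 (SE 0.18, exact p = 0.117, adjusted p = 0.654). None of the 15 tests, of 5 pairs in 3 comparisons, passed after adjustment. With the mean over the 3 probe sets of Rpl22 in place of 1, the 48 h difference was -0.67 (exact permutation test, adjusted p = 0.0325).

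The ratios of Rpl7l1 to Rpl7, Rpl39l to Rpl39, Rps27l to Rps27 and Rps4l to Rps4x differed by -0.15 to 0.13 in the 3 comparisons (adjusted exact p of 0.654 to 0.907). The mean levels of Rps27 (3.62) and Rpl39l (2.63) lay near or under the table's median of 3.52. Their ratios thus rest in part on levels near background. Rps27l, a p53-inducible relative of Rps27, ran from 7.52 through 7.59 to 7.87 at 48 h, against a range of 7.47 through 8.05 to 8.32 at 24 h. The times overlapped, and the 24 h array of batch 5 was below all 48 h arrays. The difference of -0.33 (SE 0.11, adjusted p = 0.23 by limma) passed without that array, at -0.43 (adjusted p = 0.0339). Rps19bp1, which in human cells binds Rps19 and the deacetylase SIRT1, was 0.15 higher at 24 h and 0.09 higher at 48 h against 0 h (adjusted p = 0.342 and 0.591), with overlap at both times.

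The spread among arrays was described over the 46 members with a mean at or above the table's median. A member's range over the 5 arrays at 0 h had a median of 0.21, while over 6 arrays each it had a median of 0.48 for 24 h and 0.33 for 48 h. Over all probe sets at or above that level the medians were 0.43, 0.52 and 0.49. This comparison was not matched for level, and the 46 members averaged 10.06 at 0 h, well above the table's median of 3.52. Many but not all members deviated together. Over 1035 pairs, deviations from the mean of each time had a median correlation of 0.33. It was above 0 in 74.1% of pairs, and the lowest was -0.895. Against the mean of the other members, the correlation ran from 0.97 (Rps10) to -0.85 (Rps2), with Rpl22 at -0.49. The first principal component of these deviations held 50% of the variance, and no such share is given here for other genes. At 24 h, 40, 34, 11, 24, 5 and 31 of the 46 members were above their own mean on the arrays of batches 1 to 6. At 48 h, 38 were below it on batch 5 and 35 on batch 6, while 36 and 35 were above it on batches 1 and 3.

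By the median deviation of the members, batch 5 (-0.15) was the lowest and batch 6 (0.16) the highest of the 24 h arrays. On batch 6, 37 of 46 members were higher than on batch 5, by a median of 0.37, and 15 were higher by over 0.5. Over all probe sets the median was 0.008, and 9.13% were higher by over 0.5. The 24 h arrays of batches 5 and 6 were picked by the members' own values, so a gap in the members was fixed by the choice. All probe sets were also not matched to the members for level. The values over all probe sets thus cannot show whether the gap was particular to ribosomal protein genes. Rps10, a small subunit protein that is also mutated in Diamond-Blackfan anaemia, had 10.36 on batch 6 and 9.33 on batch 5 at 24 h, against 9.98 to 10.12 on the 5 arrays at 0 h. Of its 6 probe sets 5 were higher on batch 6, by 0.83 to 1.29, and the dimmest was -0.39. Rpl35, near the exit of the peptide tunnel, had 11.01 and 9.86, and Rplp2 had 11.74 and 10.94.

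Rpl22 went the other way, with 11.48 on batch 6 and 12.02 on batch 5, and its 3 probe sets were -0.50 to -0.91. It was 1 of 9 of the 46 members that were lower on batch 6. The others were Rps25 (-0.25), Rps18 (-0.19), Rps2 (-0.18), Rpl6 (-0.13), Rps9 (-0.10), Rps6 (-0.09), Rpl13a (-0.03) and Rps3 (-0.02). The genes named for this spread, and the 24 h arrays of batches 5 and 6, were chosen after their values were seen. The gap between the 3′ and 5′ control probe sets of Gapdh was 2.97 on the 24 h array of batch 6 and 3.97 on that of batch 5, against 3.43 to 3.72 on the other 24 h arrays, while that of actin was 2.02 and 2.03. The mean level of 14 acinar markers was 6.56 on batch 6 and 4.07 on batch 5 at 24 h, and that of 8 islet markers was 11.66 and 11.24. The mean of 76 mitochondrial ribosomal protein genes was 7.64 and 7.26. The part of RNA quality, of acinar cells and of the islet share in this spread was not tested.

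**Figure D4:**
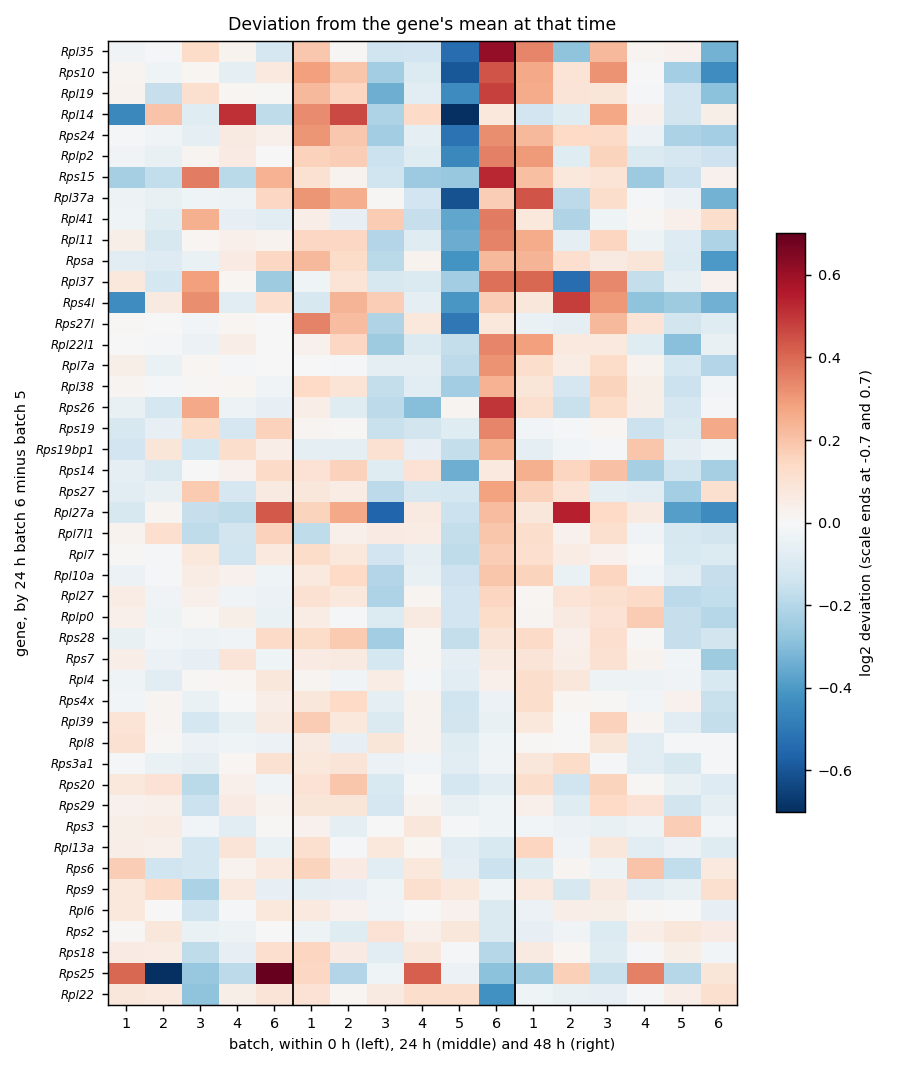
Deviation of 46 ribosomal protein genes (y axis, ordered by the difference between the 24 h arrays of batches 6 and 5) from the gene's own mean at that time, on each of 17 arrays (x axis, batches within 0, 24 and 48 h from left to right). Red is higher and blue lower, on a log2 scale that ends at -0.7 and 0.7. The 24 h columns of batch 5 and batch 6 are mostly blue and red in the upper rows, and the bottom row, Rpl22, has the opposite colours there.

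The direction of the members as a group differed between batches. The median within-batch difference of the 50 members at 24 h against 0 h was 0.13, 0.09, -0.12, -0.02 and 0.09 in batches 1, 2, 3, 4 and 6. At 48 h against 0 h it was 0.12, 0.05, 0.09, -0.04 and -0.13. At 48 h against 24 h it was 0.003, -0.03, 0.18, -0.005, 0.07 and -0.29 in batches 1 to 6. The within-batch medians of all probe sets lay between -0.04 and 0.03.

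Of 69 ribosome assembly factors measured, 20 rose and 0 fell at 24 h and 20 rose and 0 fell at 48 h against 0 h, with median differences of 0.22 and 0.20. Nhp2, a protein of the H/ACA particles that guide pseudouridylation of rRNA, ran from 6.96 through 7.03 to 7.29 at 24 h, against 5.84 to 6.41 at 0 h. Its difference was 0.95 (SE 0.09, adjusted p = 1.98e-06 by limma) at 24 h and 0.90 (adjusted p = 5.08e-06) at 48 h, with no overlap at either time. Utp6, of the small subunit processome, rose by 0.89 and 0.90, Nop58, a core protein of the C/D particles, by 0.74 and 0.65, and fibrillarin (Fbl), the methyltransferase of those particles, by 0.40 and 0.49. Among 14 genes of RNA polymerase I and its factors 0 passed in either comparison, with medians of 0.09 and 0.16. No test of the difference between these lists and the ribosomal protein genes was made.

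Of 17 other genes whose mRNAs are known to carry a TOP tract, 1 rose at 24 h and 4 at 48 h against 0 h, and 0 fell. At 24 h it was Btf3, a chaperone of nascent chains (0.41). At 48 h they were the initiation factor subunits Eif3h (0.34) and Eif3f (0.29), nucleophosmin (Npm1, 0.30) and the histone chaperone Nap1l1 (0.27). The elongation factor Eef1a1 was 0.05 and 0.04 higher and did not pass. Of 28 other translation factors, 8 rose and 1 fell at each time. Eif3c rose by 0.68 and 0.49, and Eif6, which keeps unfinished large subunits from joining, by 0.65 and 0.46. Eif3m fell by 0.46 and 0.25, so that subunits of 1 complex moved in both directions.

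Of 6 chaperones and import factors of ribosomal proteins, 2 rose at 24 h and 3 at 48 h. Heatr3, which serves Rpl5 in human cells and yeast, rose by 0.49 and 0.72, and Tsr2, which serves Rps26 in yeast, by 0.35 and 0.42. Rps26 itself was 0.27 and 0.04 higher (adjusted p = 0.174 and 0.884). Of the ribosomal protein genes outside the symbol rule, Fau was measured, at 0.08 and 0.02, and did not pass.

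Among 19 regulators of ribosomal protein synthesis, 3 rose and 2 fell at 24 h, and 3 rose and 0 fell at 48 h against 0 h. Eif4ebp1, which encodes 4E-BP1, ran at 24 h from 8.70 through 9.06 to 9.55, and at 48 h from 8.76 through 8.89 to 9.05, against 7.02 to 7.63 at 0 h. It rose by 1.81 (SE 0.14, adjusted p = 8.26e-08 by limma) and by 1.60 (adjusted p = 4.4e-07), without overlap. Sesn2 and Ddit4, stress-induced inhibitors of mTOR complex 1, rose by 1.21 and 1.45 at 24 h, and Sesn2 by 0.95 at 48 h. Ddit4 was 0.82 higher at 48 h (adjusted p = 0.148). Larp1 rose by 0.41 at 48 h, Larp1b fell by 0.28 at 24 h, and Eef2k, the kinase that stops elongation factor 2, fell by 0.47 at 24 h. Mtor was 0.22 and 0.23 higher (adjusted p = 0.0927 and 0.069).

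The mitochondrial ribosome is encoded by a separate set of nuclear genes. Of its 76 genes measured, 11 rose and 1 fell at 24 h and 8 rose and 0 fell at 48 h against 0 h, with medians of 0.11 and 0.08. Mrps25 rose by 0.49 and 0.55, Mrpl24 by 0.46 and 0.49 and Mrpl27 by 0.49 and 0.26, while Mrps12 fell by 0.30 at 24 h. At 48 h against 24 h no gene of the lists above passed except Eef2k, which rose by 0.46 (adjusted p = 0.0291). The lists were chosen with earlier results of these data known.

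**Figure D5:**
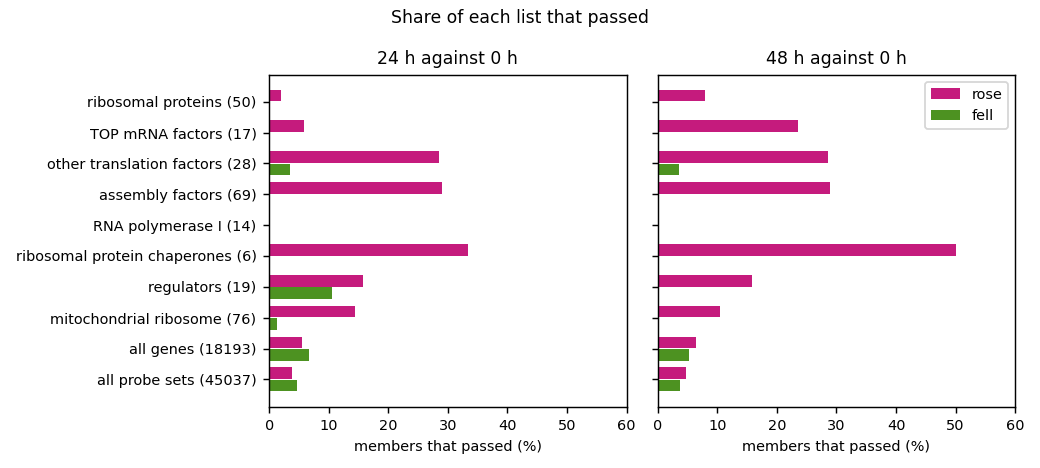
Share of each gene list that rose (pink) or fell (green) at an adjusted p under 0.05 (x axis, percent), at 24 h and at 48 h against 0 h, with the number of genes or probe sets in parentheses (y axis). The ribosomal proteins stand at 2% and 8%, the assembly factors at 20 of 69 in both panels, and all genes at 5.44% and 6.45% higher.

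Markers of islet cells and of other cell types in the preparation changed with time. The mean of 8 islet markers covered 11.74 to 12.11 at 0 h, 11.24 to 11.66 at 24 h and 11.25 to 11.75 at 48 h, high on every array. All 24 h arrays lay below all 0 h arrays. At 24 h against 0 h, 4 of the 8 fell: Ppy (-1.47), Sst (-1.27), Slc2a2 (-0.75) and Pdx1 (-0.38). Ins2 (-0.03), Gcg (-0.04), Chga (-0.04) and Iapp (0.08) did not pass. Their mean levels were 13.73, 12.75, 13.35 and 13.04, where the highest value on any array was 13.81. Differences so near the top of the scale may be understated, which was not tested. At 48 h against 0 h, 2 of the 8 fell, Sst and Slc2a2. The mean of 14 acinar markers covered 5.45 to 8.52 at 0 h, 4.07 to 7.12 at 24 h and 3.71 to 5.38 at 48 h, and 8 of the 14 fell at 48 h against 0 h. The mean of 13 endothelial markers ranged from 5.44 to 5.76, from 4.87 to 5.03 and from 4.35 to 4.80, with 8 falling at 48 h. Macrophage markers (15 genes) ranged from 5.56 to 6.11, from 4.89 to 5.27 and from 5.04 to 5.42. Of these, 1 rose and 9 fell at 24 h, and 2 rose and 6 fell at 48 h against 0 h. Mesenchymal markers (12 genes) ranged from 4.60 to 4.89, from 3.99 to 4.12 and from 4.34 to 4.64, with 0 rising and 5 falling at 24 h. At 48 h against 0 h, 3 of them rose, Col3a1 (1.71), Col1a2 (0.99) and Col1a1 (0.38). The 3 that fell were Rgs5 (-3.12), Tagln (-0.79) and Thy1 (-0.65). Lymphocyte markers (10 genes), 7 of them under the table's median, ranged from 3.02 to 3.22 over all arrays. The part of these shifts in the rises of Rpl22, Rps19, Rps3 and Rpl8 was not tested.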

How the data were processed

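Total RNA of 17 portions of islets was amplified, labelled and hybridised to 1 array each, per the labels' protocols and the study's design text. Per the submitters' processing notes, RMA was used, in a version not given in the sources used here, and the deposited log2 values hold 1 number per probe set and array. RMA corrects background, gives the arrays a common distribution and summarises probes. It takes out any shift common to most transcripts and shrinks differences of dim probe sets. That the logarithm has base 2 was inferred from the range of 1.55 to 13.81. The number of arrays limits the precision.

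Of 45101 probe sets, 64 controls were left out and 45037 tested with no filter on level. The platform annotation gave 34945 of them 1 symbol and 932 several, and did not list 9160. Members stand on 15 probe sets of the _x_at kind, 17 of _a_at, 1 of _s_at and 17 of _at, and the first 3 kinds may share probes with related transcripts or pseudogenes. limma 3.58.1 in R 4.3.3 fitted 1 mean per time to all arrays, moderated with eBayes and adjusted by Benjamini and Hochberg's method over all 45037 tests, and was tested on simulated data. Errors are its standard errors (SE) and 95% intervals. Ratios of paralogues to parent genes were tested with exact permutation tests, and as an alternative with exact sign-flip tests within batches. The members and lists were chosen with earlier results of these data known. Named members are those that passed, a fixed set, the paralogues with their parents and Rps19bp1, with others said to be chosen after seeing their values, and up to 4 passing genes of each list by size, with others of a known role. Within a time the arrays come from separate batches of pooled mice, and the times share batches.

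The batch pairs the arrays, per the study's design text. Deviations from the mean of each time correlated with a median of 0.00545 over 16 same-batch pairs (lowest -0.159, highest 0.274, above 0.1 in 4 pairs), against a median of -0.00978 over 80 pairs of different batches. The consensus correlation that limma estimated for arrays sharing a batch came to 0.0183. Alternatives used the batch as a block (fixed or random), only complete batches, the arrays of 2 times alone, arrays left out, array weights, another variance prior, 3 scalings, a filter on level, probe set kinds and other probe sets of a gene.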

Additional observations from a re-analysis of the deposited data

Results flagged for a closer look

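In 12 of 120 groups of arrays (a named gene or one of the genes chosen after seeing their values, at 1 time), the highest or lowest array stood apart from the others by Dixon's test. Chance gives about 1 in 20 for independent groups, which these are not, since the genes share arrays and some were chosen after their values were seen. At 0 h, Rpl22 was 11.40 on batch 3 (others 11.73 to 11.78), Rps26 was 9.64 (others 9.25 to 9.34), Rpl41 was 11.72 (others 11.39 to 11.45) and Rps29 was 12.14 (others 12.32 to 12.36) on the same array. Rpl11 was 9.69 on batch 2 (others 9.82 to 9.85), Rpl37a was 10.84 on batch 6 (others 10.64 to 10.66), and Rps16, under the table's median, was 2.66 on batch 1 (others 2.32 to 2.41).

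At 24 h the array of batch 6 stood apart for Rpl22, which was 11.48 (others 11.91 to 12.02), and for Rps19, which was 10.41 (others 9.91 to 10.09). At 48 h, Rps3 was 12.17 on batch 5 (others 11.94 to 11.98), Rps7 was 12.003 on batch 6 (others 12.24 to 12.36) and Rps19bp1 was 6.66 on batch 4 (others 6.40 to 6.46). Without the 24 h array of batch 6 the 24 h difference of Rpl22 against 0 h was 0.30 and passed, and that of Rps19 did not.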

How the results depend on the processing

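Each count, median, named member and ratio was recomputed under the alternatives, of which leaving out the 24 h arrays of batches 5 and 6 together was chosen after seeing the data. The count of members passing at 48 h against 0 h was 2 in place of 4 with the batch as a fixed block, with only complete batches, with only the arrays of the 2 times and without the 2 arrays of lowest correlation with their time (Rpl22 and Rps19 each time). It was 2 after quantile normalisation again (Rpl22 and Rps3) and 2 with each array centred on the brightest probe sets, where Rpl22 was higher and Rpl37 lower. It was 5 with another variance prior, with arrays centred on their medians and with the mean over probe sets, which added Rps2, and 5 without the _x_at or the _x_at and _s_at kinds, which added Rpl41. The count at 24 h against 0 h was 0 with only the arrays of the 2 times and with that centring, and 2 with the probe set of lowest mean (Rps19 higher, Rpl13a lower at -0.32). The count at 48 h against 24 h was 1 without the 2 arrays (Rps27l, -0.43).

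With 1 array left out, the count was 0 or 1 for 24 h against 0 h, 1 to 4 for 48 h against 0 h, and 0 or 1 for 48 h against 24 h. The lowest came without the 0 h array of batch 4 at 48 h, when Rpl22 alone passed. Rpl22 at 48 h passed under 33 of 33 alternatives (0.33 to 0.56, adjusted p up to 0.0337 by limma), Rps19 under 24 at 24 h and 27 at 48 h, Rps3 under 23 and Rpl8 under 12. Alternatives that left out arrays of the third time only kept the difference itself as it was. Without the 24 h arrays of batches 5 and 6 together, Rpl22 at 24 h was 0.29 and passed, Rps19 at 24 h was 0.27 and did not, and the 4 genes at 48 h all passed. The median difference of the members moved by less than the SD of its within-batch values under every alternative. That SD was 0.10, 0.10 and 0.15 in the 3 comparisons, wider than the medians of 0.01, -0.02 and -0.02. A bound so wide could hardly be crossed, so it says little about how stable the medians are. The replicate block changed no other call. The ratio of Rpl22l1 to Rpl22 at 48 h passed with the mean over probe sets (-0.67) and ranged from -0.68 to -0.54 with 1 array left out. The causes of these changes were not tested.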
